A study of Mus musculus with 7 samples.

Results

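Nfatc1 is a transcription factor that waits in the cytoplasm until calcineurin, a phosphatase switched on by calcium, removes its phosphates and lets it enter the nucleus. NFAT proteins bind short DNA sites with the core letters GGAAA, often beside AP-1 factors, whose sites read TGANTCA, and they act from enhancers inside genes as well as from promoters. R406, the active form of the drug fostamatinib, inhibits the kinase Syk, which lies upstream of calcium release in immune cells. The regions described here are 5077 peaks of FLAG-tagged Nfatc1 that lay deep inside genes and were found in R406-treated and in DMSO-treated cells alike. Each was listed in the R406 library on chromosomes 1 to 19 or X, was narrower than 2000 bp, overlapped a DMSO peak by at least 1 bp, and had its summit inside a RefSeq gene span of mouse build GRCm38 (mm10) but more than 3000 bp from both ends of every gene. They made up 34.5% of the 14714 R406 peaks of that width shared with DMSO, and 13.8% of all 36885 R406 peaks. The other shared peaks were 6011 at gene ends and 3626 between genes. A further 151 shared peaks inside genes were 2000 bp or wider and were left out. Because the rule used the peak lists, overlap and position of these peaks describe how they were chosen. RNA was not used by the rule.

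The cells were mouse embryonic fibroblasts of embryonic day 13.5 of OG2 mice (CBA-Tg(Pou5f1-EGFP)2Mnn/J), which carry a green fluorescent Pou5f1 reporter. All groups were kept in Stage 1 medium of a chemical reprogramming protocol, which held bFGF, vitamin C, VPA, Forskolin, AM580, Parnate, EPZ004777, 616452 and CHIR99021. For CUT&Tag, which cuts DNA beside a bound antibody, fibroblasts received lentiviruses for TetO-Flag-Nfatc1 and for rtTA, its Dox-dependent activator, and were grown with Dox and either R406 or DMSO for 4 days. There was 1 anti-FLAG library of each condition, so no difference between them has a replicate check, and the factor mapped was an added, tagged Nfatc1. For RNA-seq there were 2 libraries with R406 and 2 with DMSO, from a protocol of 12 days in Stage 1 medium whose labels name no Nfatc1 virus. The labels thus describe the cells behind the peaks and those behind the RNA differently, and neither the day of RNA harvest nor the R406 dose is stated in the labels. The labels do not tie the RNA replicates to separate cultures, and p-values reflect the spread between these libraries alone, which may be technical.

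The RNA libraries expressed their labelled fibroblast identity, with the 13 fibroblast markers summing to 4436 and 6254 TPM in R406 and to 4187 and 5420 TPM in DMSO, none at 0. TPM gives each gene's length-adjusted part of a total that is the same in all libraries. Markers of 2 other cell types moved with the treatment. The 12 macrophage markers summed to between 7.63 and 8.30 TPM in R406, with Ptprc listed at 0 in both libraries, and to between 235 and 275 TPM in DMSO, and all 9 of them that were tested fell. The 9 epithelial markers summed to between 462 and 807 TPM in R406 and to between 148 and 153 TPM in DMSO, and 7 of 8 tested rose. Only 5 of the 12 macrophage and 5 of the 9 epithelial markers had any base that the rule allows. The median spans of these lists were 4.94 and 7.63 kb. None of these macrophage and epithelial markers held a shared gene-body peak, beside 12.0% of all genes with allowed bases, but they are too few to compare. Of 11 fibroblast markers with allowed bases, 6 (54.5%) held one. The part of macrophages and epithelial cells in the RNA results was not tested. In bulk samples fewer cells of a type and less RNA per cell cannot be told apart.

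Some of these peaks lay on promoters hidden inside genes, where a second transcript starts. A table of annotated starts was at hand for all chromosomes but 18, which holds 209 of the peaks. Of the other 4868 peaks, 206 (4.23%) had their summit within 1000 bp of an internal start, while 0.560% of the bases eligible under the rule lay that near to one. For 64 peaks the summit fell inside the 300 bases from 250 before to 50 after a start. The sequences below are RefSeq promoter windows of GRCm38, read 5′ to 3′ on the strand of transcription, with GGAAA and TGANTCA in capitals on either strand (TTTCC is GGAAA read on the other strand). The first is the internal start of Rcan1, shown because Rcan1 encodes a calcineurin inhibitor whose internal promoter is a known NFAT target. The next 4 are the windows of the strongest peaks by the lower of the R406 and DMSO fold enrichments. The last 2 are those among the 8 strongest that hold both motifs.
Rcan1: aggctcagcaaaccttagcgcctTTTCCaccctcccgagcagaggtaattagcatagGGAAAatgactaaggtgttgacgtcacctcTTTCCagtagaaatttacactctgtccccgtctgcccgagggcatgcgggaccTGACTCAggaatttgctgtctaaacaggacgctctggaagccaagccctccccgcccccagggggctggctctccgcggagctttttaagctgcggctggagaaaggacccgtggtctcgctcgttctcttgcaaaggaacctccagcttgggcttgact
Fancc: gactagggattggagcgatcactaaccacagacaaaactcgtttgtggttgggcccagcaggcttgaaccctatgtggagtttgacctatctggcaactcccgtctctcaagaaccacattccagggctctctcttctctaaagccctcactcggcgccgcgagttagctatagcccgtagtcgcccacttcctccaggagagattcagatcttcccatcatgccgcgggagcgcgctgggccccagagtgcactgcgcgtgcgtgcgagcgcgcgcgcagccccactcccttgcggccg
Hif1a: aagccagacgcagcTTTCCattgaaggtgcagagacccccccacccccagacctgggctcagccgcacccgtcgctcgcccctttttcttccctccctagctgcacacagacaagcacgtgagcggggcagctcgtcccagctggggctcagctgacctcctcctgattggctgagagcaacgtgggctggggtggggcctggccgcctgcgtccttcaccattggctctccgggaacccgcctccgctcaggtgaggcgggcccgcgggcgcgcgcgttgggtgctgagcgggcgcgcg
Hint3: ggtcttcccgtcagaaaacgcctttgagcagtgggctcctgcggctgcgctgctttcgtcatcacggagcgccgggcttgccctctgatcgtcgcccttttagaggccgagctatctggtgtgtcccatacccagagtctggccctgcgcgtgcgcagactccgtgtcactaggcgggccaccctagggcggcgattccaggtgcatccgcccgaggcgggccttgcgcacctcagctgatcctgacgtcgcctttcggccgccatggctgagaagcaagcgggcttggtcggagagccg
Per1: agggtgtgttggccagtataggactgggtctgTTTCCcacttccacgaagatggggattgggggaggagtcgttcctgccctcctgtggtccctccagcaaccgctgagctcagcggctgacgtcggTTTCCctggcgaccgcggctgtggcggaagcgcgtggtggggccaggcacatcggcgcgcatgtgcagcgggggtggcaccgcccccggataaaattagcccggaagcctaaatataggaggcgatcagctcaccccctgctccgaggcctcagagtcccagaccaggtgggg
Myo1c: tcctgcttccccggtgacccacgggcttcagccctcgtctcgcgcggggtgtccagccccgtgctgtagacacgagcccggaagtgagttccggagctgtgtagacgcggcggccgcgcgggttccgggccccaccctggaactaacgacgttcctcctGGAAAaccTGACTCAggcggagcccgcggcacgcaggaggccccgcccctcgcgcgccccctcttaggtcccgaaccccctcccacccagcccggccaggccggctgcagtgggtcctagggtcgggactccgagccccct
Tnpo1: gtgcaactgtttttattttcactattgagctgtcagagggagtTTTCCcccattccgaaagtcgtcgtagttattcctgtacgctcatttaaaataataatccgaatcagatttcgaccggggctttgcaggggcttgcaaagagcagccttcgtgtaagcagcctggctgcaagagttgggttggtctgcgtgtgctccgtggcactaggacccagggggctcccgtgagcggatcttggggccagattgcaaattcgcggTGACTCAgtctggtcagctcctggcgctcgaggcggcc

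The Rcan1 window lies at chr16:92400029-92400328 on the minus strand and holds 3 GGAAA and 1 TGANTCA match. Its peak was 4069 bp wide in R406 and 3871 bp wide in DMSO, which put it over the width limit, and its fold enrichment was 237 in R406 and 166 in DMSO. The Fancc window, at chr13:63431696-63431995 on the minus strand in a gene of DNA crosslink repair, held none of either motif under a peak of fold 84.1 in R406 and 36.4 in DMSO. Hif1a encodes the oxygen-sensing subunit of hypoxia-inducible factor. Its internal start, at chr12:73907617-73907916 on the plus strand, held 1 GGAAA match and a peak of fold 49.3 in R406 and 20.4 in DMSO. The Hint3 window (chr10:30618317-30618616, minus strand) held neither motif, with folds of 25.3 in R406 and 19.7 in DMSO. Per1 encodes a core repressor of the circadian clock, and its window (chr11:69099902-69100201, plus strand) held 2 GGAAA matches, with a peak pileup (reads stacked at the summit) of 29 in R406 and 30 in DMSO. The Myo1c window (chr11:75655765-75656064, plus strand) and the Tnpo1 window (chr13:98890993-98891292, minus strand) each held 1 GGAAA and 1 TGANTCA match. Myo1c encodes a membrane-linked myosin and had folds of 29.1 in R406 and 16.0 in DMSO. Tnpo1 encodes a nuclear import receptor and had folds of 24.0 in R406 and 16.0 in DMSO. The strongest of these windows thus differed in motif content, and 2 of the 4 strongest held neither motif.

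Across all 64 windows with a summit, 46 (71.9%, 95% Clopper-Pearson interval 59.2 to 82.4%) held GGAAA, against 62.1% of the other 2969 internal windows and 61.6% of 32619 promoter windows of the same length. TGANTCA was held by 7 windows (10.9%, interval 4.51 to 21.2%), against 8.79% of the other internal windows and 7.85% of all promoters. Both intervals reach the shares of the other windows. The ETS core CCGGAAG, which can overlap a TTTCC match by the letters CC, was held by 10 windows (15.6%, interval 7.76 to 26.9%), against 3.87% of the other internal windows and 8.92% of all promoters. The GATA letters AGATAA were held by 2 windows (3.13%, interval 0.381 to 10.8%), against 12.6% of the other internal windows and 11.2% of all promoters. In all, 8 motifs were searched. Base composition differed as well: the median GC content was 60.3% in windows with a summit, 50.3% in the other internal windows and 53% in all promoters, and the median number of CG pairs was 21, 5 and 7 in that order. The part of base composition in the motif shares was not tested, and a match of letters is not evidence of a bound site. Sequences around the other peaks were not used here, since no genome of the build was at hand.

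Gene interiors held fewer of these peaks per base than gene ends and more than the space between genes. The interiors eligible under the rule covered 1003 Mb and held 5.06 shared peaks per Mb. Gene ends held 14.7 per Mb over 410 Mb, and intergenic DNA held 3.03 per Mb over 1199 Mb. Density ran from 6.62 peaks per Mb of interior on chromosome 17 to 4.03 on chromosome 12, with chromosome X apart at 1.60 (71 peaks). Along host genes of known strand, the peaks were spread almost evenly: 5 equal parts of the interior, counted from the 5′ end, held 21.2%, 19.9%, 18.7%, 19.8% and 20.3% of 3728 peaks. A narrow R406 peak inside a gene was shared with DMSO in 37.3% of 13609 cases, against 45.8% of 13129 at gene ends and 3626 of 9547 between genes. The R406 list was longer than the DMSO list (36885 and 21246 peaks), and read the other way 68.6% of 7658 narrow DMSO peaks inside genes overlapped an R406 peak.

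The 5077 peaks fell in 2906 host genes, 12.0% of the 24124 genes with any eligible base. Hosts included 2288 of 15796 protein-coding genes (14.5%) and 590 of 7420 long noncoding RNA genes (7.95%). Most hosts, 1832, held 1 peak, 783 held 2 or 3, 266 held 4 to 9 and 25 held 10 or more. Host genes were long, with a median span of 80.8 kb against 20.3 kb for eligible genes with no such peak. The share of genes that were hosts was 5.56% below 50 kb, 21.0% from 50 to 100 kb, 36.7% from 100 to 200 kb, 55.2% from 200 to 500 kb and 62.3% from 500 kb. Per Mb of interior the same span classes held 5.43, 5.49, 5.78, 6.06 and 2.54 peaks, so density was near level up to 500 kb and lowest in the longest genes. The median gap from a summit to the nearest other one was 33.5 kb, and 1561 peaks (30.7%) had another within 10 kb.

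**Figure D1:**
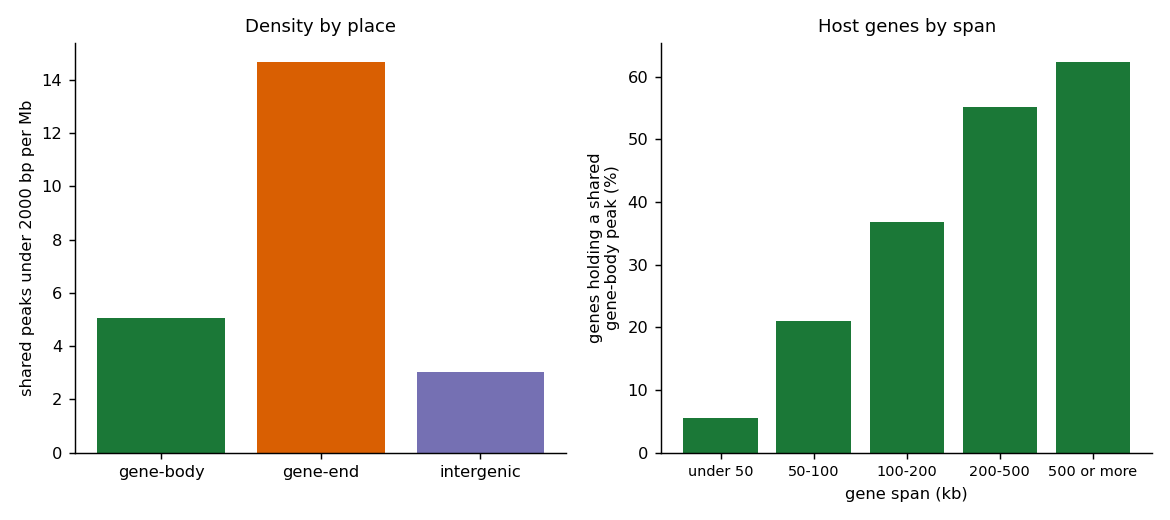
Left, shared Nfatc1 peaks under 2000 bp per Mb of gene interior, gene end and intergenic DNA. Right, the percentage of genes in each class of gene span (kb) that held at least 1 shared gene-body peak, which ran from 5.56% below 50 kb to 62.3% from 500 kb.

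The genes with the most peaks were Cmss1, Rad51b and Aopep, with 18 each. Filip1l, Palld and Slc8a1 held 16 each, Rbms3 15, Ralgps1 14, and Arhgap26 and Lrmda 13 each. All 16 peaks of Filip1l, which encodes a filamin-interacting protein, also lay inside Cmss1, whose span covers it. Palld encodes palladin, which bundles actin, Slc8a1 a sodium-calcium exchanger, and Rad51b a recombination protein. Their strongest peaks, each picked from 16 or 18 by the lower of both folds, lay above the medians of all gene-body peaks. Those medians were 13.3 in R406 and 10.2 in DMSO. The folds were 54.4 in R406 and 18.9 in DMSO for Palld and 41.7 in R406 and 33.5 in DMSO for Slc8a1. For Rad51b they were 48.1 in R406 and 37.9 in DMSO. In the whole set of 2906 hosts, 257 peaks lay in more than 1 gene span and were counted for each gene.

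Fold enrichment, as deposited, compares the stack of reads at the summit with the background that the peak caller expected. The median over the gene-body peaks was 13.3 in R406 (quartiles 8.86 and 19.6) and 10.2 in DMSO (quartiles 7.29 and 14.6). The stack itself, the pileup, could be recovered from the steps of the fold values for all but 302 peaks (5.95%), and its median was 20 in R406 and 13 in DMSO. Median width was 684 bp in R406 and 547 bp in DMSO. Summits of the matched peaks lay a median of 91 bp apart, and 53.2% lay within 100 bp. Both folds reached 10 in 2176 peaks (42.9%), 20 in 517 (10.2%) and 50 in 29.

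Whether the gene-body peaks were higher or lower in R406 depended on the scale. The deposited fold is the pileup plus 1 over the background plus 1. The background pileup was 0.581 in R406 and 0.373 in DMSO, a ratio of 1.56. On the deposited fold, 3698 of 5077 peaks (72.8%, interval 71.6 to 74.1%) were higher in R406, with quartiles of the ratio of 0.965 and 1.74. When each pileup was divided by the background of its own library, 2361 of 4775 peaks (49.4%, interval 48.0 to 50.9%) were higher in R406, with a median ratio of 0.998. When folds were instead divided by the median fold of all shared peaks in the library, 39.9% were higher in R406. On the scale of the pileup over background, 373 gene-body peaks (7.81%) were at least 2-fold higher in R406, beside 9.54% of all 13840 shared peaks, and 8.50% were at or below 0.5 of DMSO, beside 6.81%. Gene-end peaks lay higher: 62.3% (interval 61.1 to 63.6%) were higher in R406 on the scaled pileup, with a median ratio of 1.17. For intergenic peaks the share was 49.8% and the median ratio 0.998. Which scale holds the true difference cannot be told from 1 library of each condition, and the intervals cover counting error over peaks only.

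**Figure D2:**
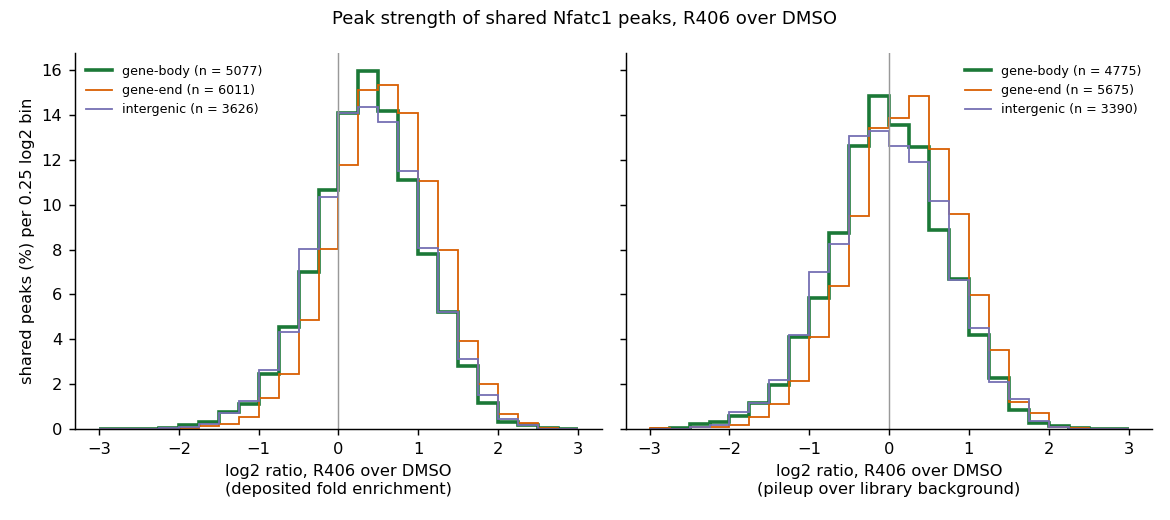
Distribution of the log2 ratio of R406 over DMSO for shared peaks inside genes, at gene ends and between genes, as the percentage of peaks in each bin of 0.25. On the deposited fold (left) the gene-body peaks centre above 0, and on the pileup over library background (right) they centre at 0 with the intergenic peaks, while gene-end peaks lie to the right.

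Peaks within 1000 bp of an internal start lay more often on the R406 side of this scale than peaks farther away. Their median scaled ratio was 1.22, and 131 of 191 (68.6%, interval 61.5 to 75.1%) were higher in R406. Among the 4389 peaks farther than 1000 bp from any start, the median was 0.987 and 48.7% (interval 47.2 to 50.2%) were higher in R406. Their medians of the deposited fold were 14.5 in R406 and 8.74 in DMSO near a start, and 13.3 in R406 and 10.2 in DMSO farther away.

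The peak with the highest lower-of-both fold lay in Cdk8, a kinase of the Mediator complex, at chr5:146260979-146261379. It was 389 bp wide in the DMSO list, with a fold of 138 in R406 and 103 in DMSO and a pileup of 217 (95% Poisson interval 189 to 248) in R406 and 141 (interval 119 to 166) in DMSO. The summits were 13 bp apart. It was the only one of these peaks in Cdk8, whose RNA stood at 15.3 and 11.9 TPM in R406 and at 17.6 and 14.9 TPM in DMSO. The next, in the noncoding gene Gm36876 at chr11:109011646-109012139, was 494 bp wide, with a fold of 171 in R406 and 96.2 in DMSO. Others among the 10 strongest lay in Gm32333, Aknad1, Slc30a7, a zinc transporter gene, Fmn1, which encodes an actin-nucleating formin, Fndc3b, Elmo1, a regulator of Rac and cell movement, and in 2 genes of calcium signalling. Pde1a encodes a calmodulin-dependent phosphodiesterase, and its peak had pileups of 149 in R406 and 102 in DMSO. Itpkb phosphorylates inositol trisphosphate, the messenger that opens calcium stores, and its peak had folds of 175 in R406 and 68.5 in DMSO.

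The peaks with the most extreme ratios of R406 to DMSO fold were as follows, with intervals that cover counting error in 1 library each and not variation between libraries. In Gse1, a peak at chr8:120275957-120277430 had a fold of 60.1 and a pileup of 94 (interval 76.0 to 115) in R406, against a fold of 8.01 and a pileup of 10 (interval 4.80 to 18.4) in DMSO. Its ratio of folds, 7.50, was the highest among peaks with a −log10 q of at least 5 in both lists, followed by peaks in Htra1 (5.75), Cd200r3 (5.43), Gm32196 (5.30) and Cpt1a (4.97). At the other end, a peak in Robo2, an axon guidance receptor gene, at chr16:74521194-74521658 had a fold of 5.69 and a pileup of 8 (interval 3.45 to 15.8) in R406, against 24.8 and a pileup of 33 (interval 22.7 to 46.3) in DMSO. Its ratio of 0.230 was followed by peaks in Lrrc7 (0.241), Wdr27 (0.275), Fhod3 (0.279) and Camk2d (0.280). In Lrrc7 and Fhod3 the 2 summits were 947 and 931 bp apart, and the low ratios compare different ends of wider DMSO peaks. These genes were chosen by the ratio. None of the 7 that were tested for RNA was called changed, beside 4.26% of all tested genes called higher and 4.05% lower. With 7 genes such a count says little, and the lowest limma adjusted p among them was 0.0615, in Camk2d. Gm32196, Cd200r3 and Lrrc7 were not tested.

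The rule also fixes which peaks just missed. The widest included peak, in Notch1, measured 1998 bp, with folds of 17.7 in R406 and 10.9 in DMSO. The narrowest one left out for width, in Tmem108, measured 2003 bp, with folds of 25.3 in R406 and 16.0 in DMSO. The peak nearest to a gene end, in Lhfp, was 3003 bp away, with folds of 29.7 in R406 and 6.56 in DMSO. One in Gm40678, left out at 2996 bp, had folds of 17.1 in R406 and 16.8 in DMSO.

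Genes of the pathway itself were among the hosts. Of 35 genes of calcium entry, calcineurin and NFAT with eligible bases, 10 (28.6%) held such a peak, beside 12.0% of all eligible genes. These hosts held 35 peaks in all. The median span of the listed genes was 99.9 kb. Among all eligible genes, 21.0% of those of 50 to 100 kb and 36.7% of those of 100 to 200 kb were hosts. The pathway share thus lay between those of genes of like span. Nfatc1 held 5 and Nfatc2, which encodes another NFAT factor, held 4. The calcineurin catalytic subunit gene Ppp3ca held 1, and the calcineurin inhibitor genes Rcan1 and Rcan2 held 5 and 3. Among genes of calcium movement, the L-type channel gene Cacna1c held 6, the inositol trisphosphate receptor genes Itpr1 and Itpr2 held 5 and 4, and the store sensor gene Stim2 and the calcium pump gene Atp2b4 held 1 each. The strongest Nfatc1 peak had folds of 89.8 in R406 and 38.6 in DMSO, with pileups of 141 in R406 and 52 in DMSO. Nfatc1 reads from exons cannot be told apart from those of the added virus, and exons and introns were not assigned here.

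Rcan1 held 11 shared peaks of the R406 list, and those outside the rule were too wide, near a gene end or both. One narrow peak near an end, at chr16:92443061-92444300, had folds of 102 in R406 and 72.1 in DMSO. The 5 Rcan1 peaks that met the rule lay on both sides of the wide one at the internal start. At chr16:92407434-92408423 the fold was 56.3 in R406 and 36.4 in DMSO, and at chr16:92439626-92440915 it was 37.3 in R406 and 38.6 in DMSO. The other 3 of these 5 had folds of 6.96, 13.9 and 6.33 in R406 and of 7.29, 20.4 and 6.56 in DMSO, in the order of their coordinates. Scaled by library background, 1 of the 5 was higher in R406, with a ratio of 1.15, and the others had ratios of 0.499 to 0.721. Rcan1 RNA stood at 159 and 128 TPM in R406 and 160 and 128 TPM in DMSO, overlapping groups (log2 change −0.0050, SE 0.22, limma adjusted p = 0.992). In Cacna1c the 6 peaks lay between 397 and 522 kb from the low-coordinate end of its 610 kb span, with folds of 6.33 to 35.4 in R406 and 6.56 to 16.8 in DMSO.

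**Figure D3:**
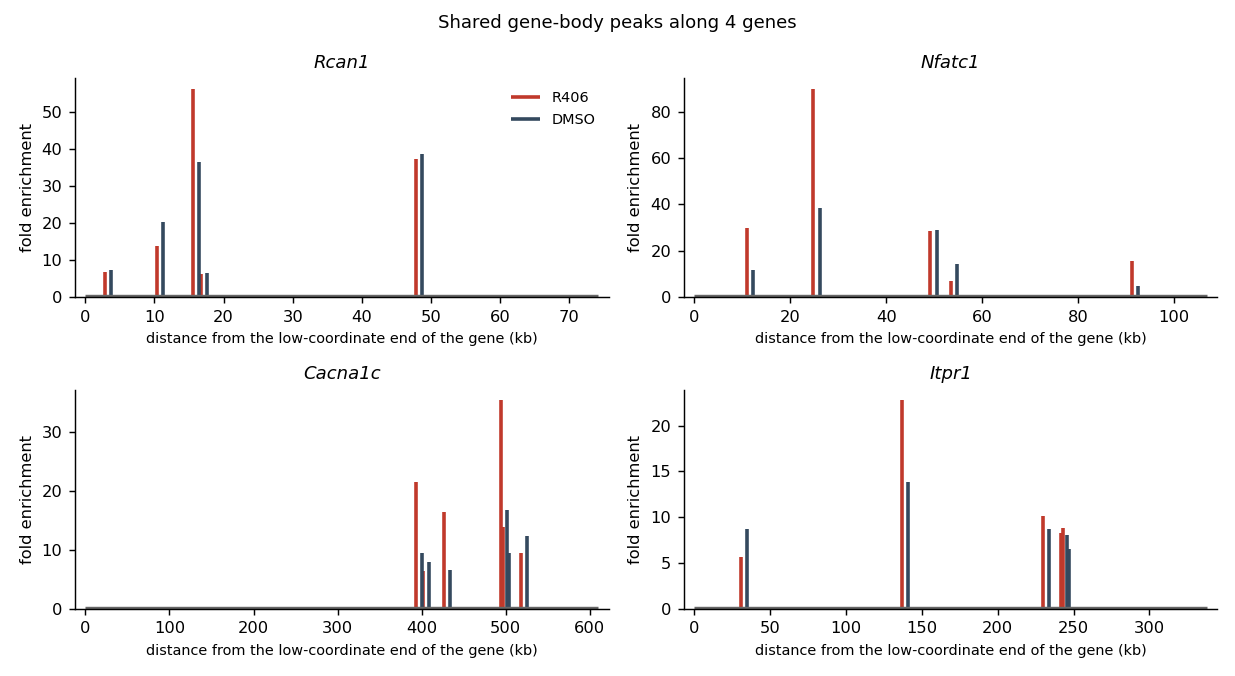
Shared gene-body peaks along Rcan1, Nfatc1, Cacna1c and Itpr1, the pathway genes with the most of them. Each line stands at a peak's distance (kb) from the low-coordinate end of the gene and its height is the fold enrichment in R406 (red) or DMSO (grey, drawn slightly to the right), and the tallest pair, in Nfatc1, reaches 89.8 in R406 and 38.6 in DMSO.

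Of the pathway hosts, 9 were tested for RNA. Itpr1 alone was called, as lower, beside 9.22% of all tested hosts and 4.05% of all tested genes called lower. Itpr1 had 5.25 and 4.81 TPM in R406 and 14.6 and 17.4 TPM in DMSO, groups that did not overlap (log2 change −1.50, SE 0.20, adjusted p = 0.022). Without either DMSO library its adjusted p was 0.0697 or 0.0712. Nfatc1 stood at 7.36 and 5.45 TPM in R406 and 2.41 and 2.98 TPM in DMSO, an adjusted p of 0.0659. Ppp3ca stood at 30.1 and 28.0 TPM in R406 and 41.8 and 38.2 TPM in DMSO, an adjusted p of 0.196. None of the 21 tested pathway genes without such a peak was called.

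A larger share of host genes than of other genes was called lower with R406. RNA was tested with limma on log2(TPM + 1) in 13929 genes, of which 4.26% were called higher and 4.05% lower at a Benjamini-Hochberg adjusted p of 0.05. Of 1779 host genes tested, 68 (3.82%) were higher and 164 (9.22%) lower. Of 8558 tested genes with eligible bases and no such peak, 350 (4.09%) were higher and 299 (3.49%) lower. Over all genes with eligible bases the shares were 4.04% and 4.48%. The median log2 change was −0.20 in hosts, −0.04 in genes with no peak and −0.02 over all genes. The share called lower was 6.89% in hosts of 1 peak, 10.6% in hosts of 2 or 3 and 16.2% (38 of 235) in hosts of 4 or more, whose median log2 change was −0.43. These shares are descriptions over genes, which are not independent, and the difference between hosts and other genes was not itself tested.

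The share called lower was larger in longer genes, with or without a peak, so hosts were set beside genes of like span. Below 50 kb, 6.23% of hosts and 3.05% of genes with no peak were called lower. The shares were 8.18% and 4.20% from 50 to 100 kb, 11.1% and 5.38% from 100 to 200 kb, and 12.2% and 8.97% from 200 kb. The medians of the log2 change did not all lie the same way: −0.10 in hosts and 0.0033 in genes with no peak below 50 kb, −0.25 and −0.18 from 50 to 100 kb, −0.20 and −0.23 from 100 to 200 kb, and −0.33 and −0.20 from 200 kb. Hosts also passed the expression limit more often, in 69.5% of those matched to the RNA table against 51.4%. Without either DMSO library the counts dropped, and without DMSO replicate 1 hosts hardly stood apart. Without DMSO replicate 1, 23 hosts (1.29%) were called lower beside 1.13% of all genes, and 0.851% of hosts of 4 or more peaks. Without DMSO replicate 2 it was 64 hosts (3.60%) beside 2.41%. The median log2 change of hosts of 4 or more lay between −0.48 and −0.37 when any 1 library was left out, beside −0.14 to 0.09 over all genes.

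**Figure D4:**
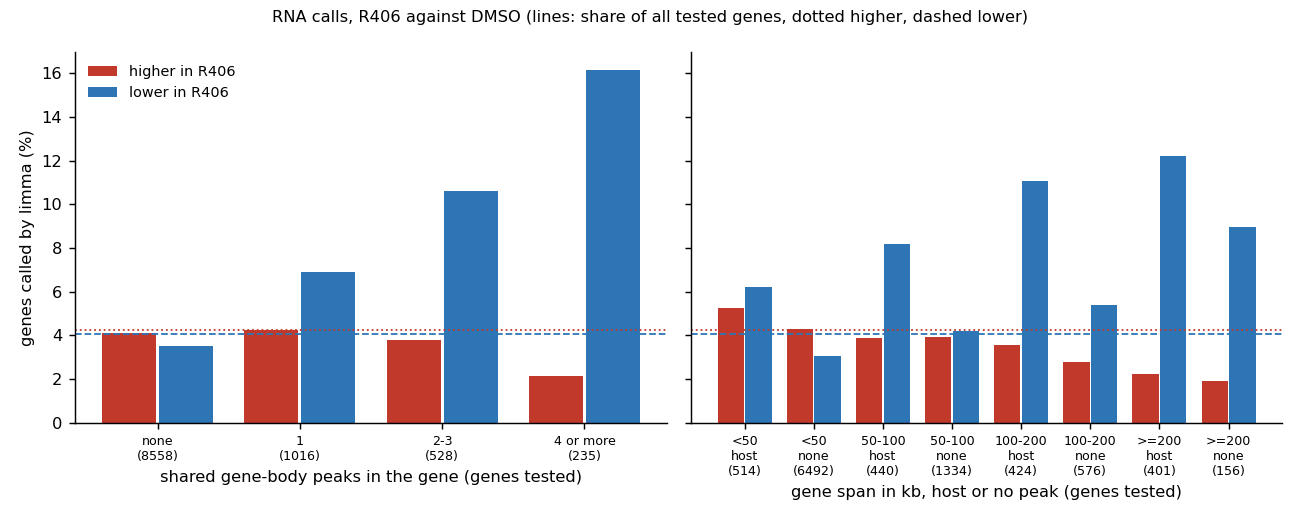
Percentage of tested genes called higher (red) or lower (blue) in R406 against DMSO by limma, by the number of shared gene-body peaks in the gene (left) and by gene span for hosts and genes with no peak (right), with numbers of genes tested in parentheses. Lines mark the shares over all tested genes, 4.26% higher (dotted) and 4.05% lower (dashed), and the share called lower is 16.2% in genes with 4 or more peaks.

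How the peaks differed between the libraries was compared with the RNA of their hosts. The median scaled ratio of R406 over DMSO was 1.03 for 123 peaks in hosts called higher, 0.962 for 411 peaks in hosts called lower and 0.998 for 2900 peaks in tested hosts with no call. Across 1709 host genes, which share the same libraries and are not independent, the mean log2 ratio of a gene's peaks and its RNA change had a Pearson correlation of 0.0757 and a Spearman correlation of 0.0658.

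The rises among host genes were led by Col15a1, Gldc, Wfdc1, Igfbp5 and Igfbp4. Col15a1, a basement membrane collagen gene with 1 peak, had 53.6 and 47.0 TPM in R406 and 1.54 and 1.97 TPM in DMSO (log2 change 4.22, SE 0.20, adjusted p = 0.0078). Gldc, which encodes the glycine-cleaving enzyme of mitochondria and held 4 peaks, had 77.3 and 52.0 TPM in R406 and 5.00 and 5.87 TPM in DMSO (log2 change 3.33, SE 0.26, adjusted p = 0.012). For both genes the R406 libraries lay far above both DMSO libraries. Igfbp5 and Igfbp4 encode binding proteins of insulin-like growth factors and held 1 peak each. Igfbp5 had 486 and 495 TPM in R406 and 98.1 and 67.1 TPM in DMSO, and Igfbp4 had 666 and 405 TPM in R406 and 109 and 75.2 TPM in DMSO. Their peaks differed, with folds of 20.2 in R406 and 6.56 in DMSO in Igfbp5 and of 12.7 in R406 and 9.47 in DMSO in Igfbp4. Wfdc1, Gna14, Egflam and the retinol-metabolizing gene Adh7 rose as well, by log2 changes of 1.97 to 2.63. Prelid2 and Cmklr1 rose by 2.23 and 2.08, with adjusted p of 0.0505 and 0.0633 without DMSO replicate 1.

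The falls were led by Ereg, Ugt1a9, Il1rl1, Fbln2 and Nid1. Ereg, the epiregulin gene, which encodes an EGF receptor ligand, had 1.20 and 1.63 TPM in R406 and 34.3 and 27.8 TPM in DMSO (log2 change −3.73, SE 0.22, adjusted p = 0.0089). Its single peak had a fold of 17.7 in R406 and 15.3 in DMSO. Il1rl1, the receptor gene of interleukin-33, had 0.631 and 1.04 TPM in R406 and 17.4 and 12.8 TPM in DMSO, with a peak fold of 22.1 in R406 and 32.8 in DMSO. Nid1, which encodes the basement membrane linker nidogen, had 32.5 and 35.6 TPM in R406 and 229 and 194 TPM in DMSO. In all 3 genes the groups were well separated. Plat, the gene of tissue plasminogen activator, had 39.4 and 33.3 TPM in R406 and 238 and 204 TPM in DMSO. Etv5, an ETS factor gene, had 4.52 ± 0.774 TPM in R406 and 28.2 ± 2.56 TPM in DMSO (mean ± SD, n = 2 each), while its peak had a fold of 29.7 in R406 and 12.4 in DMSO. Fbln2, Efemp1, Ptprt and Gas7 fell by log2 changes of 2.36 to 2.68 in size. Ugt1a9 fell too, but its span is shared by other Ugt1a genes of common sequence, so its value is uncertain. All 10 of these calls held when any 1 library was left out.

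**Figure D5:**
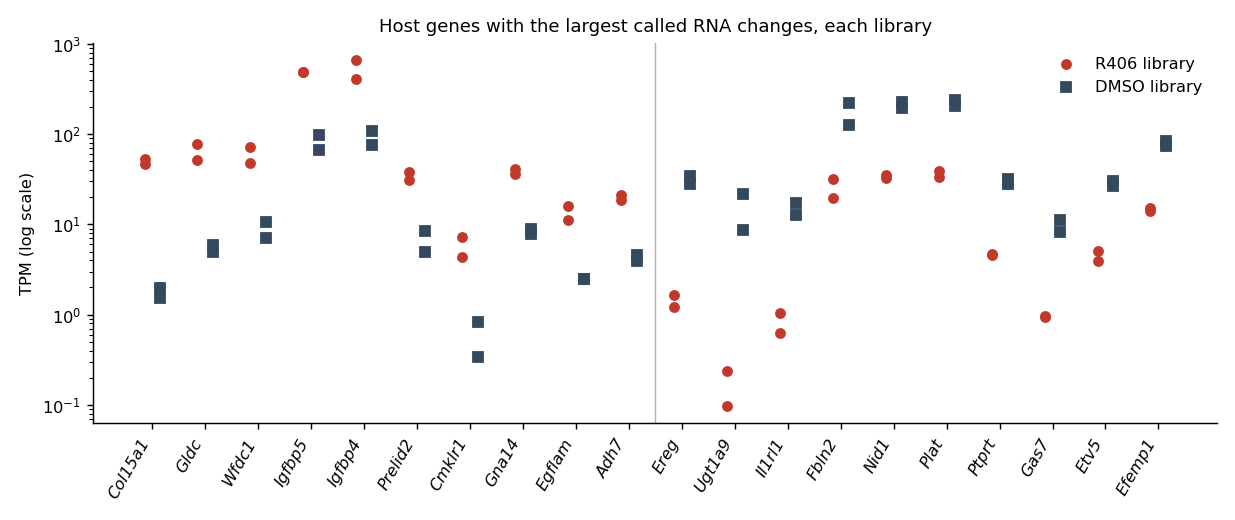
TPM (log axis) of each R406 library (red circles) and each DMSO library (grey squares) for the 10 host genes with the largest rise and the 10 with the largest fall among those named. Non-overlap of the R406 and DMSO libraries, seen in 56.1% of all tested genes, was a condition for choosing these 20 genes.

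The genes with the most peaks did not all move one way, though hosts of 4 or more peaks leaned lower (median log2 change −0.43). Rad51b, with 18, rose to 7.31 and 7.01 TPM in R406, against 2.01 and 2.15 TPM in DMSO (log2 change 1.41, SE 0.18, adjusted p = 0.022), though its adjusted p was 0.0933 without DMSO replicate 1 and 0.0575 without DMSO replicate 2. Palld fell to 69.8 and 58.8 TPM in R406, against 142 and 127 TPM in DMSO (log2 change −1.05, SE 0.19, adjusted p = 0.042), a call lost without any 1 of the 4 libraries (adjusted p 0.0540 to 0.241). Slc8a1 and Fndc3b, with 16 and 12 peaks, were called lower with adjusted p of 0.041 and 0.035, and each lost the call without 3 of the 4 libraries, at 0.0761 to 0.153. Slc8a1 had 0.344 and 0.540 TPM in R406 and 1.97 and 1.95 TPM in DMSO, so only its DMSO libraries lay above the limit of 1 TPM for the mean. Fndc3b had 16.0 and 19.4 TPM in R406 and 39.3 and 42.5 TPM in DMSO. Cmss1, Aopep, Filip1l, Rbms3, Ralgps1 and Arhgap26 were not called, and Lrmda was too low to be tested. Filip1l had 50.2 and 51.6 TPM in R406 and 83.6 and 92.3 TPM in DMSO, an adjusted p of 0.0664.

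Among hosts of 4 or more peaks, the 38 called lower included Slit3 (8 peaks), Trio (8), Sema3a (6) and Igf2r (5). Slit3 and Sema3a encode secreted guidance cues, and Igf2r a receptor of insulin-like growth factor. Slit3 had 35.2 and 24.5 TPM in R406 and 122 and 85.9 TPM in DMSO. Trio, a guanine exchange factor gene, had 3.84 and 3.95 TPM in R406 and 12.6 and 11.9 TPM in DMSO. Medag, Sash1 and Fhl2, named after their values were seen like the other genes of this paragraph, fell by log2 changes of 1.48 to 1.61 in size. The 5 called higher were Gldc, Col14a1, Pde3a, Cubn and Rad51b. Many of these calls were close to the threshold: of the 38, 25 and 22 were kept without R406 replicate 2 and 1, but 7 without DMSO replicate 2 and 2 (Ptprt and Specc1) without DMSO replicate 1.

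Actin, adhesion and contractile genes were hosts in 25 of 43 cases (58.1%), beside 12.0% of all eligible genes. Hosts made up 21.0% of eligible genes of 50 to 100 kb and 36.7% of those of 100 to 200 kb. The list had a median span of 95.5 kb and held 85 peaks. Of 24 hosts tested, 10 fell and none rose, beside 9.22% of all tested hosts and 4.05% of all tested genes called lower. They included Cald1, Tpm1, Vcl, Lpp, Ptk2, Itgb1, Srgap1 and Pdlim5. Tpm1, the tropomyosin gene, had 349 and 320 TPM in R406 and 744 and 705 TPM in DMSO. Vcl, which encodes the adhesion protein vinculin, had 4.56 ± 0.308 TPM in R406 and 22.9 ± 6.92 TPM in DMSO (mean ± SD, n = 2 each). Itgb1, the shared integrin beta subunit gene, had 144 and 141 TPM in R406 and 331 and 334 TPM in DMSO. In each the R406 libraries lay below both DMSO libraries. Itgb5, with the second most peaks of the list after Filip1l (9), stood at 355 and 193 TPM in R406 and 289 and 191 TPM in DMSO. The 16 tested genes of the list without a peak had a like median log2 change, −0.77 against −0.72 in hosts, with 3 called lower. Of the 10 calls in hosts, 1 was kept without DMSO replicate 1, 2 without DMSO replicate 2, 4 without R406 replicate 1 and 4 without R406 replicate 2.

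Collagen and matrix genes were hosts in 24 of 38 cases (63.2%), beside 12.0% of all eligible genes. Hosts made up 21.0% of eligible genes of 50 to 100 kb and 36.7% of those of 100 to 200 kb. The list had a median span of 84.5 kb and held 66 peaks. All 24 were tested: Col3a1, Col5a2 and Col15a1 rose, and Fbn1, Ltbp1, Ltbp2, Adamts12 and Timp2 fell, 3 and 5 genes beside 4.26% and 4.05% of all tested genes. Of the 13 tested genes of the list without a peak, 4 rose and 2 fell, with a median log2 change of −0.62 against −0.46 in hosts. Col3a1, the fibrillar collagen III gene, had 786 and 616 TPM in R406 and 215 and 252 TPM in DMSO. Fbn1, the fibrillin gene of elastic fibres, had 10.2 and 9.42 TPM in R406 and 45.3 and 35.3 TPM in DMSO. Timp2, a metalloproteinase inhibitor gene, had 209 and 172 TPM in R406 and 749 and 630 TPM in DMSO. Of these 8 calls, Col15a1 alone was kept without DMSO replicate 1, while 4 were kept without DMSO replicate 2, 6 without R406 replicate 1 and 7 without R406 replicate 2.

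Other lists gave at most 1 called host in each direction, beside 3.82% of all tested hosts called higher and 9.22% lower. Of 16 tested hosts in the TGF-beta, BMP, Wnt, Hippo and receptor kinase list, Fgfr2 rose and Tgfbr2 fell. Its 22 tested genes without a peak included 1 that fell and 0 that rose. Tgfbr2, the type II receptor of TGF-beta, had 58.3 and 51.0 TPM in R406 and 202 and 189 TPM in DMSO, with an adjusted p of 0.017, and of 0.0599 without DMSO replicate 1. The call of Fgfr2 was lost without any 1 of the 4 libraries (adjusted p 0.0906 to 0.252). Among 15 tested hosts of the cAMP and retinoic acid list, Pde3a, a phosphodiesterase gene with 7 peaks, had 6.16 and 6.66 TPM in R406 and 1.58 and 1.73 TPM in DMSO (adjusted p = 0.020, and 0.0831 without DMSO replicate 1). Pde7b and Pde4d held 10 peaks each and had adjusted p of 0.823 and 0.183. In the same list, 13 tested genes had no peak, and 2 of them rose and 1 fell. Of 8 tested hosts among AP-1, MEF2, MAF, RUNX and TEAD factors, Runx2, the bone-forming factor gene, had 1.28 and 0.962 TPM in R406 and 6.14 and 4.87 TPM in DMSO (adjusted p = 0.022, and 0.0725 without DMSO replicate 1). Tead1, with 6 peaks, stood at 3.13 and 27.0 TPM in the R406 libraries, which lie on both sides of 8.67 and 9.30 TPM in DMSO. Among the 16 tested factor genes without a peak, 2 fell and 0 rose. Hydrogen sulphide, serine, glycine and one-carbon genes were hosts in 4 of 25 cases (16%), beside 12.0% of all eligible genes. Gldc was the 1 called among these hosts, while 5 of the 26 tested genes of the list without a peak rose and 1 fell. Among reprogramming and endoderm factors 1 of 20 was a host, the laminin gene Lamc1. Of the 16 tested genes of that list without a peak, 10 rose, beside 4.26% of all tested genes called higher.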

How the data were processed

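CUT&Tag peaks of FLAG-Nfatc1 (1 library with R406, 1 with DMSO) and RNA-seq (2 libraries each) were used, grouped by sample title. The blank was not analysed here. The authors deposited a peak list per CUT&Tag library that gives each peak a fold enrichment (a ratio), a score, and the −log10 of its p-value and of its q-value. The score was 10 times that −log10 p. Per the submitters' processing notes, tools included Bowtie2 2.2.5, MACS2 2.1.2, HISAT2 2.1.0 and StringTie 2.0 on mm10. The use of the blank in peak calling, the caller's limit and the handling of duplicates are not stated in the labels or headers. Fold values fell on whole steps of one background in 94.9% of R406 and 94.4% of DMSO peaks, within 0.02 of a step, which gave the pileup and the background of each library. Each peak was paired with the overlapping DMSO peak of highest fold, and 82 had 2 such partners. Gene spans came from RefSeq GRCm38, so position was judged by span, not by exon or intron, and promoter sequences came from RefSeq GRCm38.

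The authors deposited TPM per gene. TPM keeps no depth, so the reads behind a value are unknown, and the library kit did not mark strand, so overlapping genes cannot be told apart. A gene at 0 is only listed at 0. Genes averaging 1 TPM or more over the 4 libraries were tested in R 4.3.3 with limma 3.58.1 on the scale log2(TPM + 1), under a variance trend, two-sided, R406 over DMSO, adjusted by Benjamini-Hochberg over all 13929 genes. On that scale the change of low genes is understated. On simulated data, drawn independently for each gene and library, it called 96 of 100 genes changed by 2 on the log2 scale. Of 13729 unchanged genes it called 18. Those data held no library effect shared across genes, so they do not show how the test behaves where one exists. Of 2906 host genes, 2558 matched the RNA table, 23 of them through a synonym.

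The members and lists were chosen with earlier results of these data known. Named genes were up to 10 hosts in each direction with the largest called change and at least 5 TPM in the higher group, the 10 with the most peaks, those of the strongest peaks and of the extreme ratios, and up to 4 of each list with the most peaks, besides the pathway hosts. Other genes named, including the called hosts of each list and the promoter windows, were chosen after their values were seen. Alternatives covered the RNA filter, pseudocount, scaling, each library left out, and the rule's overlap, distance, q-value and gene type. A few genes of the lists are counted but not reported here by name.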

Additional observations from a re-analysis of the deposited data

How the results depend on the processing

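Counts of RNA calls moved with the filter, the scaling and single libraries. With a mean of at least 5 TPM, 311 of all genes were higher and 332 lower, and 33 hosts higher. Median centring gave 933 higher and quantile normalization 850 lower among all genes. With no filter on low values limma called 0 genes in either direction, all genes and hosts alike, while 5394 of 27879 genes and 780 hosts had an unadjusted p under 0.05. Leaving out 1 library at a time gave 159 to 914 genes higher and 158 to 574 lower, and 10 to 93 hosts higher and 23 to 141 lower, and of the 232 host calls, 150 and 177 were kept without R406 replicate 1 and 2, and 32 and 93 without DMSO replicate 1 and 2. A replicate block gave 2128 genes higher and 2535 lower, and 194 hosts higher and 540 lower. The deviations of libraries of one number had a correlation of 0.556 across genes, but there were only 2 pairs and no label ties a number to a culture, so the block was not used. The share of hosts called lower stayed above that of all genes under every RNA setting that made calls, from 1.29% beside 1.13% (without DMSO replicate 1) to 30.4% beside 18.2% (replicate block). With summits more than 10000 bp from gene ends there were 1801 hosts, 38 of them called higher. The share of peaks with a higher fold in R406 was 39.9% once folds were divided by the median fold of shared peaks, and 49.4% on the pileup over library background, an alternative chosen after seeing the data. All other settings of the peak rule kept the counts within 1.5 times. Motif searches around peak summits, planned with windows of 3 lengths, were not run for want of a genome. With 1 CUT&Tag library of each condition, a peak that is strong in one and weak in the other cannot be told from variation between libraries.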
